A study of Mus musculus with 6 samples.

Results

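Adiponectin, other proteins that fat cells secrete, and the receptors and binding protein of adiponectin were examined in hearts of wild type (WT) mice and of mice that overexpress prokineticin receptor-1 (TG-PKR1). The set held 10 of the 27745 gene names on the arrays. All probes other than controls that carry one of these names were taken, which gave 16 of 41174 probes. The 7 secreted products were Adipoq, Cfd, Retn, Lep, Hp, Angptl4 and Apoc1, with 8 probes. The 3 receptors and binding protein were Adipor1, Adipor2 and Cdh13, also with 8 probes. Each group had 3 male mice, 12 weeks old, and RNA of each heart was put on 1 single-dye array. The mice were kept on a C57BL6/J background. In the transgenic mice the alpha myosin heavy chain promoter, which is active in cardiomyocytes, drives PKR1, so that its expression is directed to heart muscle cells and not to fat cells. The labels do not say whether the transgenic hearts come from 1 founder line or from littermates of the controls. No dietary or drug treatment is named for these hearts. The hearts are called WT heart 1 to 3 and TG heart 1 to 3, and the numbers carry no pairing.

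Adiponectin is a hormone that fat cells assemble into multimers and release into the blood. It acts on muscle, heart and liver through 2 membrane receptors, Adipor1 and Adipor2, which signal to the energy sensor AMPK and to the lipid-regulated factor PPARα, and it is held on heart and vessel cells by T-cadherin, the product of Cdh13. The other products share the fat cell as a source but not the target. Complement factor D and resistin come mainly from fat cells in the mouse, leptin reports fat mass to the brain, and haptoglobin, Angptl4 and apolipoprotein C1 are also made by other cells, such as liver, muscle or macrophages.

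The secreted products were lower in TG-PKR1 hearts, and the median of the receptors over all hearts was close to that of all probes. In the 7 product probes that were well above background on all 6 arrays, every TG heart lay below every WT heart. The median log2 difference, TG-PKR1 minus WT, was -1.44 over these 7 probes, with a range from -2.40 to -1.09, and -1.43 over all 8 product probes. The median over the 8 receptor and binding protein probes was 0.05, with a range from -0.59 to 0.56. For the 6 of these measured on all arrays, the median was -0.43 within the extended-range arrays and 0.18 within the single-scan arrays. These 2 scan modes are described below. The median over the 20000 probes tested was 0.03. Among the 20000 probes tested were 7 product probes and 6 receptor and binding protein probes. Those of Lep, the third of Adipor2 and the second of Cdh13 were not tested. Adipoq passed the test in limma, which makes 1 of 7 product probes against 0.0950% of all 20000 probes called lower. In either direction, 0 of 6 receptor probes were called. SAM, the test named in the study's methods, called 5 of 7 product probes lower, against 0.271% of all probes, and 0 of 6 receptor probes. Non-overlap of the hearts, with TG lower, held for 7 of 8 product probes and 2 of 8 receptor probes, against 2.73% of all probes. At an unadjusted limma p under 0.05, 7 product probes and 1 receptor probe were lower and 0 higher, against 1.66% and 0.715% of all probes. Without WT heart 1, WT heart 3, TG heart 1 or TG heart 3 the limma count of product probes was 0, and without TG heart 2 it was 2. With 3 hearts in each group the two-sided exact permutation test cannot give a p below 0.1, and p-values measure the spread between these mice only.

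Each value below is a normalized log2 signal, so that 1 unit is a factor of 2 in fluorescence, and probes are not compared with each other because each binds its transcript with its own strength. The probe positions are those of the mouse build mm8, as the files give them, and which exon or untranslated part a probe covers was not determined here. A probe is called well above background by the scanner software. The 75th percentile of the spot signals was 2.08 to 14.1 times the local background. The 10 of 10 cardiomyocyte markers examined were well above background on every array. The probe for Prokr1, the gene of PKR1, was well above background on 0 of 6 arrays, so the genotypes could not be checked on these arrays. The arrays of WT heart 1 and TG hearts 2 and 3 were read with an extended scan range. WT hearts 2 and 3 and TG heart 1 were read in a single scan, with signals closer to background. WT heart 2 and TG heart 1 shared a slide, and the other 4 hearts lay on slides of their own. Differences within each scan mode and between the 2 hearts on the shared slide are given for each of the 10 genes that was measured on all arrays. In such bulk RNA, fewer cells of a type and less RNA per cell cannot be told apart.

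The bases just before the transcription start of the members are shown first, so that products and receptors can be set side by side. They come from the RefSeq promoter table for GRCm38.p6, which held 6 of the 10 members and no entry for Hp, Angptl4, Apoc1 or Cdh13. Each sequence is the 150 bases before the start, written 5′ to 3′ on the strand of the gene. Capitals mark the letters CCAAT (bound by NF-Y and related factors), TATAA (the TATA box), TTGCNNAA (a form of the site of C/EBP factors) or AGGTCA (the core site of nuclear receptors such as PPARγ), searched on both strands, where a match on the other strand shows as its reverse complement. Adipor1 had 2 start sites in the table, and the first is shown.
Adipoq, chr16:23146386-23146535, plus strand: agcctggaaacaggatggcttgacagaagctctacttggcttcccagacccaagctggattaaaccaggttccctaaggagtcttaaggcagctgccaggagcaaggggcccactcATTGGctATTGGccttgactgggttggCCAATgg
Cfd, chr10:79890703-79890852, plus strand: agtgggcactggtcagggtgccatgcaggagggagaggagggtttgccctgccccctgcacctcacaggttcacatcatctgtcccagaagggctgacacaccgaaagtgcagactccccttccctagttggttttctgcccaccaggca
Retn, chr8:3655620-3655769, plus strand: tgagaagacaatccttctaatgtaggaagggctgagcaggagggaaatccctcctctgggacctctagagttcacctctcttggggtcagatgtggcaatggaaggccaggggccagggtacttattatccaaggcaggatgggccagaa
Lep, chr6:29060071-29060220, plus strand: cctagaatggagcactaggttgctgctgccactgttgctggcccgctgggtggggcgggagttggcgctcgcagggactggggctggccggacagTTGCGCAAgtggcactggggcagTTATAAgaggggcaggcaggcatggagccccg
Adipor1, chr1:134415228-134415377, plus strand: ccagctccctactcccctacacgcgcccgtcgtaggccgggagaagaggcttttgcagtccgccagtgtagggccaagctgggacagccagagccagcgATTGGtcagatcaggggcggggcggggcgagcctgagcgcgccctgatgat
Adipor2, chr6:119388735-119388884, minus strand: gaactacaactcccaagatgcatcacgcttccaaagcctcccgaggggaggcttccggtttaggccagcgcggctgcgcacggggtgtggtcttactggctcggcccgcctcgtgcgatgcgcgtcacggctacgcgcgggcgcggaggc

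Adipoq held 3 CCAAT matches, which began 34, 27 and 7 bases before the start. Lep held the C/EBP-type match TTGCGCAA, begun 55 bases before the start and a TATAA match on each strand, overlapping, from 32 bases before it. Adipor1 held 1 CCAAT match 51 bases before the start. Cfd, Retn and Adipor2 held none of these letters, and AGGTCA was in 0 of the windows shown. Over the 32851 promoters in the table, a window of this length held CCAAT in 24.5%, TATAA in 14.2%, TTGCNNAA in 5.46% and AGGTCA in 8.58%. The windows shown for products and receptors differed more plainly in CpG. These pairs of C followed by G are frequent in promoters of broadly used genes. There were 0 CpG before Adipoq and Retn, 1 before Cfd and 7 before Lep, against 12 before Adipor1 and 19 before Adipor2, where the median promoter of the table has 4. The share of G and C was 54.7% for Adipoq, 60.0% for Cfd, 53.3% for Retn and 66.7% for Lep. It was 67.3% for Adipor1 and 68.0% for Adipor2, where the median promoter of the table has 54.0%. Of the products shown, Lep lay nearest to the receptors in both counts. These are counts of letters and were not tested.

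Adiponectin showed the clearest separation. The probe for Adipoq (chr16:23072837-23072896) read 12.44, 12.00 and 11.99 in WT hearts 1 to 3 and 10.38, 10.20 and 10.08 in TG hearts 1 to 3. Both groups were tight, and the highest TG heart stood 1.61 below the lowest WT heart. Adipoq fell by 1.93 (SE 0.18, limma adjusted p = 0.0339, n = 3 hearts per group), which leaves 26.3% of the WT signal, a 3.80-fold lower level (95% interval 2.87 to 5.04). The difference was -2.30 within the extended-range arrays and -1.62 within the single-scan arrays, and -1.62 on the shared slide. The call was lost without WT heart 1 (adjusted p = 0.172), WT heart 3 (0.104), TG heart 1 (0.0694) or TG heart 3 (0.123), with the difference still between -2.01 and -1.78, and with scan mode as a block (-1.96, 0.189). The signal was 9.15 to 193 times the local background.

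**Figure D1:**
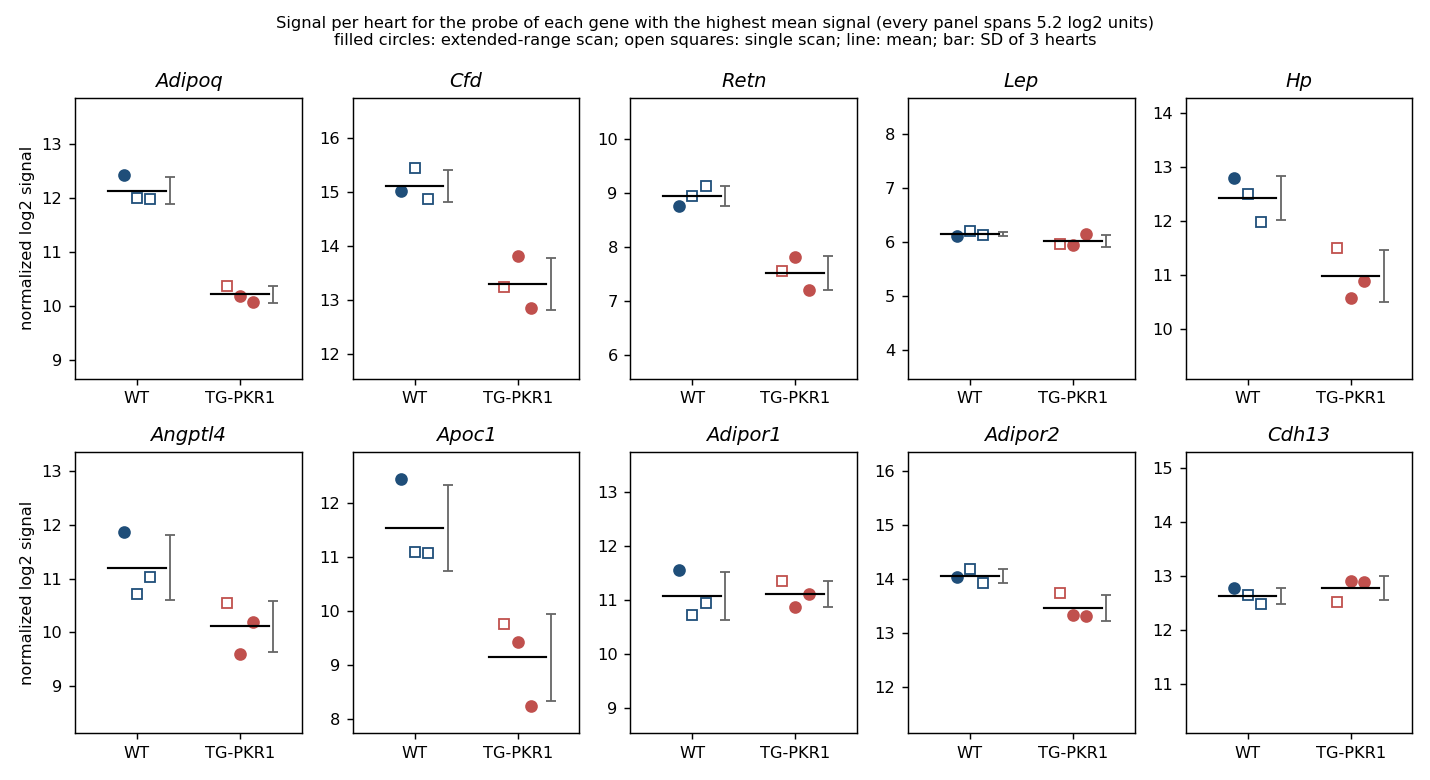
Normalized log2 signal (vertical axis) of the probe with the highest mean signal for each of the 10 genes, in 3 WT hearts (blue) and 3 TG-PKR1 hearts (red), with the mean as a line and the SD as a bar; circles are extended-range scans and squares single scans. Adipoq, Cfd, Retn, Hp and Apoc1 show 2 groups that do not overlap, Angptl4 and Adipor2 narrow gaps of 0.18 and 0.19, and Lep, Adipor1 and Cdh13 overlap.

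Complement factor D, or adipsin, is a serine protease of the alternative complement pathway that fat cells release in large amounts. The probe for Cfd (chr10:79295686-79295745) read 15.02, 15.43 and 14.86 in WT hearts and 13.24, 13.80 and 12.84 in TG hearts. The groups were 1.06 apart at their nearest hearts. The difference of -1.81 (SE 0.26) left 28.6% of the WT signal, but did not pass limma (adjusted p = 0.0777), while SAM called it. Within the scan modes it was -1.70 and -1.91, extended range first, and on the shared slide -2.19. Cfd passed limma without TG heart 2, the highest of the TG hearts (adjusted p = 0.0431).

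Resistin is a small cysteine-rich hormone that in mice comes from fat cells. Its 2 probes (chr8:3656107-3656928 and chr8:3656145-3656966) each span an intron and overlap, so they are close to 1 measurement made in 2 spots. The first read 8.76, 8.93 and 9.12 in WT hearts and 7.54, 7.81 and 7.19 in TG hearts. The second read 8.38, 8.84 and 8.94 in WT hearts and 7.32, 7.76 and 7.07 in TG hearts. Both ordered the hearts of each group in the same way, with WT heart 3 and TG heart 2 highest. The differences were -1.43 (SE 0.20, limma adjusted p = 0.0594) and -1.34 (SE 0.23, limma adjusted p = 0.145), and SAM called both. The first probe differed by -1.27 within the extended-range arrays, -1.49 within the single-scan arrays and -1.39 on the shared slide, and the second by -0.96, -1.57 and -1.52. Against its background Retn was dim, with 1.74 and 1.61 times the local background in TG heart 1 on the first and the second probe. No background was subtracted, which compresses differences so close to background.

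Haptoglobin binds free hemoglobin and is made by liver and fat. The probe for Hp (chr8:112464401-112464460) read 12.80, 12.50 and 11.99 in WT hearts and 11.50, 10.57 and 10.89 in TG hearts. The lowest WT heart and the highest TG heart were 0.49 apart. The difference of -1.44 (SE 0.28, limma adjusted p = 0.257) was called by neither test. It was -2.07 within the extended-range arrays, -0.75 within the single-scan arrays and -1.0 on the shared slide. Of the 8 hepatocyte markers examined, 3 were well above background on all arrays, with differences from -0.15 to 0.02.

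Angptl4 is a secreted inhibitor of lipoprotein lipase, and fat, heart muscle and liver make it when fatty acids are plentiful. The probe for Angptl4 (chr17:33381815-33381874) read 11.87, 10.71 and 11.02 in WT hearts and 10.54, 9.61 and 10.19 in TG hearts. WT heart 1 was high, and the lowest WT heart came within 0.18 of TG heart 1. The difference of -1.09 (SE 0.33, limma adjusted p = 1.0, unadjusted p = 0.00989) passed neither test. It was -1.97 within the extended-range arrays, -0.33 within the single-scan arrays and -0.18 between the 2 hearts that shared a slide.

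Apolipoprotein C1 is a small protein of lipoproteins that slows their uptake and is made by liver, macrophages and fat. The probe for Apoc1 (chr7:18848029-18848088) read 12.45, 11.09 and 11.08 in WT hearts and 9.77, 9.43 and 8.24 in TG hearts. The groups were 1.32 apart although each had 1 heart that stood off, WT heart 1 upward and TG heart 3 downward. This was the largest difference of the 16 probes, -2.40 (SE 0.47), or 19.0% of the WT signal, and also the least precise of the products, with a fold of 5.27 (95% interval 2.52 to 11). SAM called Apoc1, and limma did not (adjusted p = 0.257). The difference was -3.62 within the extended-range arrays, -1.32 within the single-scan arrays and -1.32 on the shared slide.

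Leptin, the hormone that signals fat stores, was near the detection limit in every heart. The probe for Lep (chr6:29023244-29023303) has 10 spots on each array, of which 2, 3 and 9 were well above background in WT hearts 1 to 3 and 0, 0 and 9 in TG hearts 1 to 3. The values were 6.11, 6.19 and 6.13 in WT hearts and 5.95, 5.93 and 6.14 in TG hearts. They overlapped, and Lep was not among the 20000 probes tested. No fold is given because the signal was 1.1 to 1.78 times the local background.

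The heart that was highest or lowest was not the same for all products. WT heart 1 was the highest WT heart for 4 of the 7 measured product probes, those of Adipoq, Hp, Angptl4 and Apoc1. For the same 4 probes the difference was more negative within the extended-range arrays, to which WT heart 1 belongs, than within the single-scan arrays. For Cfd and the probes of Retn the order was the opposite, with TG heart 2 highest among the TG hearts. TG heart 3 was lowest for 5 of the 7 probes. Over the 7 probes the median difference was -1.97 within the extended-range arrays and -1.49 within the single-scan arrays, and it was negative in both for each probe. For the 6 measured receptor and binding protein probes the medians were -0.43 and 0.18, with 5 and 3 of the probes lower.

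**Figure D2:**
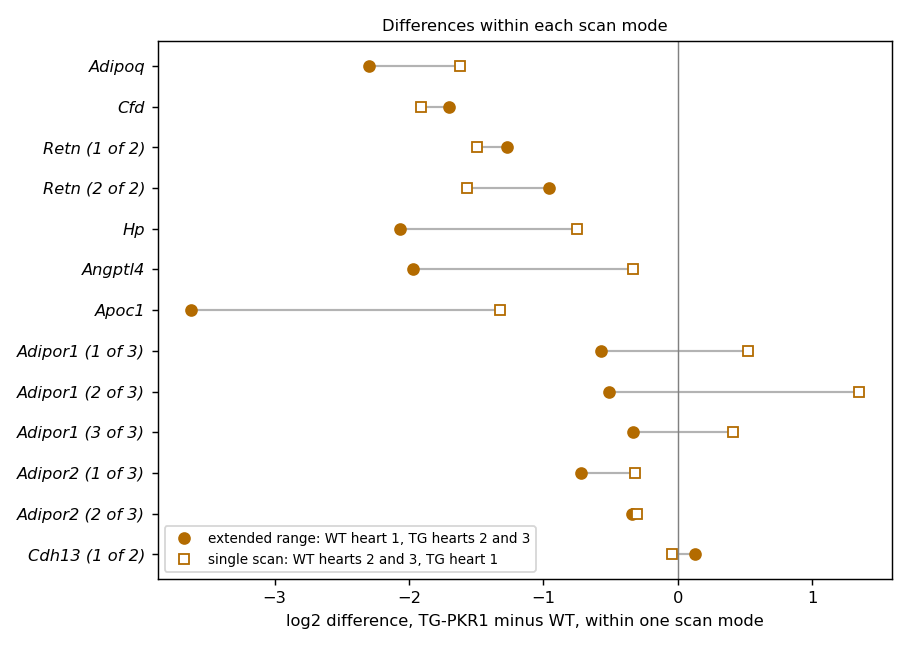
Log2 difference, TG-PKR1 minus WT (horizontal axis), of the 13 member probes well above background on all arrays, computed within the extended-range arrays (circles; 1 WT and 2 TG hearts) and within the single-scan arrays (squares; 2 WT and 1 TG heart). All 7 product probes lie below 0 in both modes, Apoc1 at -3.62 and -1.32, whereas the 3 probes of Adipor1 lie on opposite sides of 0.

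The receptors gave a different picture. Adipor1, the receptor linked mainly to AMPK, has 3 probes (chr1:136248469-136248528, chr1:136241293-136242338 and chr1:136249459-136249518). The first read 11.57, 10.72 and 10.95 in WT hearts and 11.36, 10.88 and 11.11 in TG hearts. The TG values lay inside the WT range, and the difference was 0.04 (95% interval -0.51 to 0.58). The second read 10.65, 9.51 and 9.09 in WT hearts and 10.64, 9.69 and 10.60 in TG hearts, a difference of 0.56 (95% interval -0.37 to 1.49). The third read 9.24, 8.58 and 8.72 in WT hearts and 9.05, 8.56 and 9.26 in TG hearts, a difference of 0.11 (95% interval -0.43 to 0.66). None of the 3 passed the test, each with a limma adjusted p of 1.0, and in all 3 the hearts overlapped. WT heart 1 was the highest WT heart on each probe. Within the extended-range arrays the differences were -0.57, -0.51 and -0.33, and within the single-scan arrays 0.52, 1.35 and 0.41. The sign of Adipor1 thus differed between the scan modes. WT heart 1 was the only WT heart in the extended-range set, so scan mode and this heart cannot be told apart. On the shared slide the differences were 0.64, 1.14 and 0.48. The second probe moved to 1.01 without WT heart 1, 0.87 without TG heart 2 and 0.23 without WT heart 3. These intervals include changes in both directions, and the data do not show that Adipor1 was equal in the groups.

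Adipor2, the receptor linked mainly to PPARα and fatty acid oxidation, was the exception among the receptors. Its first probe (chr6:119318823-119318882) read 14.04, 14.18 and 13.93 in WT hearts and 13.73, 13.33 and 13.31 in TG hearts. The groups did not overlap, with a gap of 0.19. The difference of -0.59 (SE 0.17, 95% interval -0.98 to -0.20) corresponds to 66.4% of the WT signal. It had an unadjusted limma p of 0.00794 and an adjusted p of 1.0, and SAM did not call it. The second probe (chr6:119325102-119327451) read 8.68, 8.67 and 8.48 in WT hearts and 8.27, 8.47 and 8.21 in TG hearts. Its groups were 0.01 apart, and the difference was -0.29 (SE 0.15, limma adjusted p = 1.0). Both probes were lower in TG hearts within each scan mode, at -0.72 and -0.32 for the first and -0.34 and -0.30 for the second, and on the shared slide, at -0.44 and -0.40. The third probe (chr6:119324317-119324376) was well above background on 0 of 6 arrays.

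T-cadherin, encoded by Cdh13, is a cadherin that is anchored to the membrane by a lipid and binds the large multimers of adiponectin. Its first probe (chr8:122200046-122200105) read 12.76, 12.64 and 12.47 in WT hearts and 12.51, 12.90 and 12.88 in TG hearts. The groups overlapped, and the difference was 0.14 (95% interval -0.24 to 0.53, limma adjusted p = 1.0). This interval leaves out a fall of the size seen for Adipoq. The sign of Cdh13 turned with the arrays compared, at 0.13 within the extended-range arrays, -0.04 within the single-scan arrays and -0.13 on the shared slide. The second probe (chr8:121738151-121738210) was well above background in TG heart 3 alone.

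**Figure D3:**
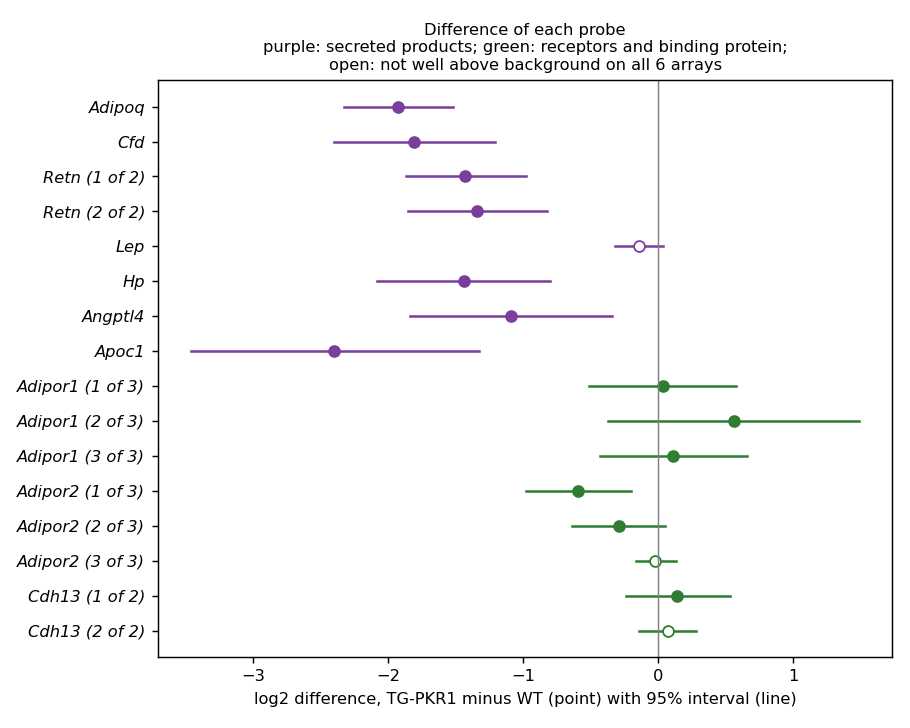
Log2 difference, TG-PKR1 minus WT (horizontal axis), of each of the 16 probes, as a point with its 95% interval from limma as a line; secreted products are purple, receptors and binding protein green, and open points were not well above background on all 6 arrays. The intervals of the 7 measured product probes lie below 0, from Apoc1 at -2.40 to Angptl4 at -1.09, and of the receptor probes the first of Adipor2 alone has an interval below 0.

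The genes that assemble adiponectin in the cell and those that relay its signal were taken from lists written by hand. Erp44, Ero1a, Gstk1 (DsbA-L), Plod1 and Plod3, which retain, fold or hydroxylate the hormone before release, are used by many cell types. Of these 5 genes 0 passed the test, and the median difference was 0.04, with Plod1 at 0.45 and Erp44 at -0.13. Plod1 read 9.25, 9.06 and 8.57 in WT hearts and 9.75, 8.96 and 9.53 in TG hearts. Erp44 read 10.23, 10.14 and 10.47 in WT hearts and 10.08, 10.33 and 10.06 in TG hearts. Both overlapped, and WT heart 3 was the lowest WT heart for Plod1 and the highest for Erp44. The relay list held 22 genes, among them the adaptors Appl1 and Appl2, the subunits of AMPK and its activating kinases, and targets such as Cpt1b and Slc2a4. A probe was tested for 21 of them, 0 were called, and the median was 0.10. Of all probes, limma called 0.0950% lower and 0.00% higher. The differences ran from -0.24 for Prkag2, a regulatory subunit of AMPK, to 0.49 for Ppargc1a, a coactivator of mitochondrial genes. Prkag2 read 7.92, 7.94 and 8.01 in WT hearts and 7.75, 7.98 and 7.41 in TG hearts. Ppargc1a read 10.81, 11.84 and 11.44 in WT hearts and 11.73, 12.21 and 11.62 in TG hearts. Both overlapped, and on the shared slide Ppargc1a was lower in TG heart 1 than in WT heart 2. Sirt1 was at 0.27 and Prkab1 at 0.24, each with a limma adjusted p of 1.0. Prkab1 read 9.90, 9.42 and 9.12 in WT hearts and 9.75, 9.58 and 9.83 in TG hearts, which overlapped.

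Among 34 other secreted proteins known as adipokines, 25 were well above background on all arrays, and their median difference was -0.02. limma called 1 of them lower, against 0.0950% of all probes, and 0 higher, and 4 did not overlap with TG lower, against 2.73% of all probes. The gene called was Rbp4, the carrier of retinol in blood, which read 10.71, 10.35 and 10.34 in WT hearts and 8.28, 8.77 and 8.47 in TG hearts. Rbp4 fell by 1.96 (SE 0.19, limma adjusted p = 0.0339), close to the size of the fall of Adipoq. As with Adipoq, the call was lost without WT heart 1 (adjusted p = 0.172), WT heart 3 (0.104), TG heart 1 (0.0727) or TG heart 3 (0.129), and with scan mode as a block (0.0885). Nrg4, a growth factor released by brown fat, read 8.72, 8.55 and 8.45 in WT hearts and 7.57, 7.59 and 7.22 in TG hearts. Its difference of -1.11 (limma adjusted p = 0.0899) was called by SAM alone. Retnla, a relative of resistin made by macrophages and fat, differed by -0.72 and C1qtnf12, a relative of adiponectin, by -0.51, both without overlap of the hearts and both with a limma adjusted p of 1.0. Retnla was at -1.10 on the shared slide. The means of Metrnl differed by 0.30, and its hearts did not overlap with TG higher, as for 2.68% of all probes, but it did not pass the test.

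The proteins on which the other products act were also listed. Of 22 such genes 17 were well above background on all arrays, and their median difference was -0.05. In this list 0 were called, against 0.0950% of all probes called lower by limma. Cfb, the substrate that factor D cuts, differed by -0.69 and C3, the next protein of that pathway, by -0.54. Cfb read 9.35, 8.57 and 8.41 in WT hearts and 8.43, 7.68 and 8.14 in TG hearts, and these overlapped. Cfb was at -0.41 without WT heart 1 and -0.14 on the shared slide, and C3 at -0.34 with 75th percentile scaling. Lpl, the lipase that Angptl4 inhibits, differed by 0.02, and Angptl2 by 0.49. Angptl2 read 8.40, 7.93 and 7.55 in WT hearts and 8.65, 7.96 and 8.72 in TG hearts. These overlapped, with WT heart 3 lowest. Hmox1, which breaks down heme, differed by -0.28. The receptor of leptin, Lepr, was well above background on 3 of 6 arrays, so that neither leptin nor its receptor was well measured here.

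Markers of fat cells were lower in the same hearts as the products. Of 14 adipocyte markers, 11 were well above background on all arrays, 9 of these 11 did not overlap with TG lower, against 2.73% of all probes, and their median difference was -0.98. limma called 3 lower, against 0.0950% of all probes, and 0 higher. Plin1, the coat protein of lipid droplets, fell by 2.25, and Cidec, which fuses droplets, fell by 2.02 (limma adjusted p = 0.0339 and 0.0386). Gpd1, which makes the glycerol backbone of triglycerides, fell by 1.99 (limma adjusted p = 0.0339). Car3 differed by -1.82, Cebpa by -1.04, Pparg by -0.98 and Slc1a5 by -0.73, none of them past the limma threshold. Cebpa was at -0.57 without WT heart 1 and -0.19 on the shared slide. Relative to the mean of each gene in WT hearts, the median of the list was 0.20, 0.11 and -0.33 in WT hearts and -0.83, -1.02 and -1.02 in TG hearts. The median of the product probes on the same scale was 0.30, -0.01 and -0.18 in WT hearts and -1.40, -1.59 and -1.75 in TG hearts. Adrb3 was well above background on 0 of 6 arrays. Of 8 brown adipocyte markers 5 were well above background on all arrays, with a median of -1.39, and Ucp1, the uncoupling protein of brown fat, fell by 3.23 (limma adjusted p = 0.0445). Without WT heart 1 the limma adjusted p was 0.172 for Plin1, Cidec and Gpd1 and 0.237 for Ucp1. Each of these 4 calls was also lost without WT heart 3, TG heart 1 or TG heart 3, that of Cidec without WT heart 2 as well (0.0811), and those of Cidec, Gpd1 and Ucp1 without TG heart 2 (0.0754 to 0.0868). On the shared slide the difference was -1.28 for Gpd1 and -2.05 for Ucp1. With scan mode as a block none of the 4 passed limma (adjusted p = 0.189 to 0.235). Of the remaining brown adipocyte markers measured on all arrays, Cidea differed by -1.77, Dio2 by -1.39 and Cox8b by -0.08, and Ppargc1a, which is also in the relay list, was higher by 0.49, none past the limma threshold. Dio2 was at -0.84 on the shared slide, where Ppargc1a was lower in the TG heart than in the WT heart. The part of fat cell content in the product differences was not tested.

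The lists for other cell types held 0 calls. Over all probes limma called 0.0950% lower and 0.00% higher, a share at which lists this short hold few calls. All 10 macrophage markers were well above background, with a median difference of -0.05 and a range from -0.47 to 0.13, and 0 were called. Of 10 neutrophil markers 1 was well above background on all arrays. The medians were 0.07 for 8 endothelial, 0.19 for 7 smooth muscle and 0.07 for 10 cardiomyocyte markers. Single endothelial markers ran from -0.27 to 0.26 and single smooth muscle markers from -0.46 to 0.44. The 10 cardiomyocyte markers had higher means in TG hearts, by 0.02 to 0.23, where 11632 of all 20000 probes did, and their hearts overlapped. The median of this list was 0.17, -0.03 and -0.23 in WT hearts and 0.43, -0.19 and 0.07 in TG hearts. Endothelial, smooth muscle and heart muscle cells are among the cells that carry the adiponectin receptors and T-cadherin.

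**Figure D4:**
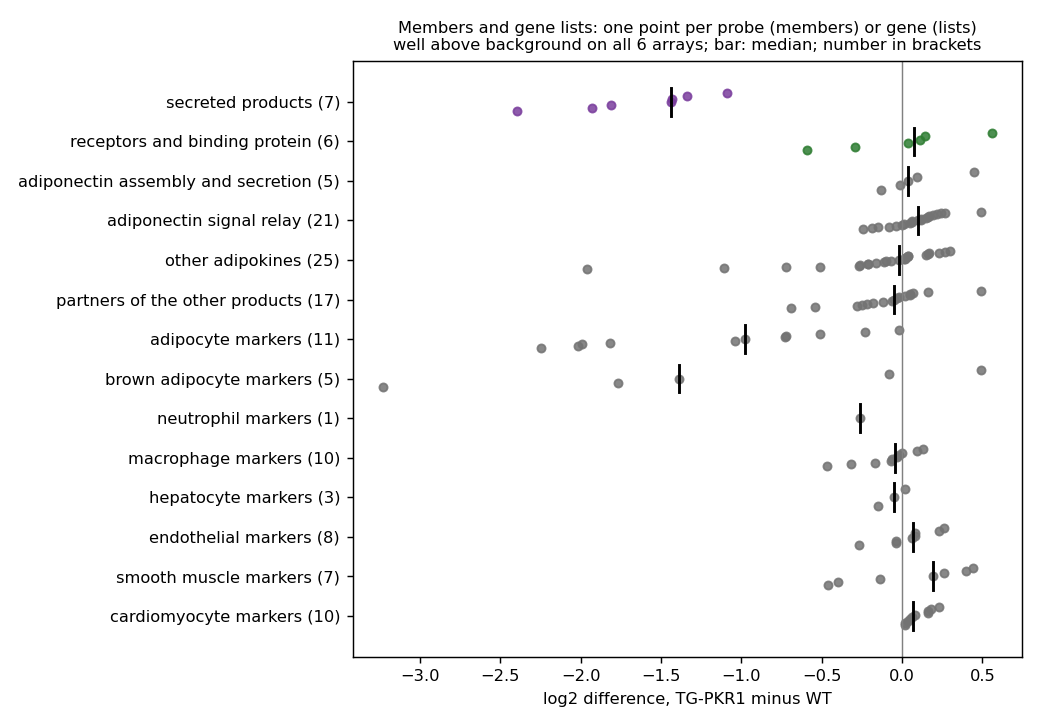
Log2 difference, TG-PKR1 minus WT (horizontal axis), of the member probes and of each listed gene that was well above background on all 6 arrays, 1 point each, with the median of a set as a bar and the number of points in brackets. The medians of the secreted products (-1.44), adipocyte markers (-0.98) and brown adipocyte markers (-1.39) lie to the left of 0, with 1 brown adipocyte marker, Ppargc1a, to the right at 0.49, and the medians of the other sets lie between -0.26 and 0.19.

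The genes whose values over the 6 hearts were most like those of 3 members were found by Pearson correlation, as a description with n = 6 hearts in 2 groups. Adipoq was nearest to Cxcl13, a chemokine (r = 0.999), and Pparg, the master factor of fat cells (0.996). Next came a probe that carries no gene symbol (0.995), Acvr1c (0.991) and Cidea (0.989). Angptl4 was nearest to genes that did not include these. The highest was a probe that carries no gene symbol (0.997). Others included Cd74, the invariant chain of antigen presentation (0.994), and Acly, which makes acetyl-CoA for lipid synthesis (0.983). Adipor2 was nearest to Mgst1 (0.983), Igf1 (0.982), Ctss (0.968), Thrsp (0.958), a gene of lipid synthesis, and C3 (0.950). No p belongs to these correlations, since the genes were picked as the highest among the probes tested.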

How the data were processed

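RNA of 3 WT and 3 TG-PKR1 hearts was measured on 6 single-dye Agilent arrays. The authors deposited the scanner values of each spot as fluorescence intensity, extracted with Agilent Feature Extraction 9.5.1.1, and a table of log2 values, after LOWESS, that holds the mean of replicate probes for the probes with high medians. The median intensity was taken on the log2 scale without background subtraction, without control and outlier spots. A loess curve (span 0.3, 4 iterations) against the profile of medians over the 6 arrays, which hold 43379 spots each, removed differences between arrays. The mean was taken over spots of a probe, and of all probes the 20000 with the highest median were kept. Members were found by the gene name in the files. Other genes were named through a RefSeq table of GRCm38.p6, by accession for 15334 probes and by name for 3039, and 1627 kept the name in the files. Groups were compared with limma 3.58.1 (lmFit, eBayes), run in R 4.3.3, at a threshold of 0.05 after Benjamini-Hochberg adjustment over the 20000 probes. A two-sided exact permutation test over the hearts was run for each member probe. SAM was rewritten for 2 unpaired groups with all 20 assignments of hearts and read at an estimated false discovery rate of 0%. limma and SAM were checked on simulated data. The members and lists were chosen with earlier results of these data known. From the lists on adiponectin, adipokines, partners and fat cells, the text names every gene past the limma threshold and up to 4 more with the largest differences among those measured on all arrays. Lpl, Lepr and Adrb3 were named for their role or as undetected, after their values were seen, and other lists are given by counts. A gene of a list was read from 1 probe. Precision is limited by 3 hearts per group. Alternatives are given in the closing section.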

Additional observations from a re-analysis of the deposited data

How the results depend on the processing

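Of the 22 alternatives, some changed the test, the threshold or the probes tested and could not move a difference. In each of the others that it entered, every one of the 7 measured product probes kept a lower mean in TG hearts, and so did both measured Adipor2 probes. The number of product probes called by limma was 1. It became 3 with quantile normalization, with trend and robust eBayes and at an adjusted p under 0.1, 5 with SAM, and 0 with 75th percentile scaling, in the authors' table, over all probes, over the 23205 probes detected above background on at least 3 arrays and with scan mode as a block. Leaving out each heart in turn gave 0 to 2. The median of the products was -1.84 with the processed signal, and that of the receptors -0.08 with 75th percentile scaling. With probes of a gene averaged, the product median was -1.63. The averaged products left out Lep and held 1 value for Retn, so this median covers a different set. Adipoq kept its size but not its call with 75th percentile scaling (-1.79, limma adjusted p = 0.144), in the authors' table (-1.88, 0.0942), over all probes (-1.93, 0.198), over probes well above background (-1.93, 0.0567) and with scan mode as a block (-1.96, 0.189). Without 1 heart Adipoq ranged from -2.01 to -1.78. Uncalled differences changed sign, namely Cox8b with 75th percentile scaling (0.15), Gstk1 with normexp (-0.00), Cdh13 (-0.13) and Ppargc1a (from 0.49 to -0.11) with slide as a fixed block and Adipor1 with scan mode as a block (-0.03). With 1 heart left out the range was -0.14 to 0.28 for the first, 0.23 to 1.01 for the second and -0.04 to 0.31 for the third Adipor1 probe. The range was -0.13 to 0.40 for Plod3, -0.23 to 0.11 for Cox8b and -0.03 to 0.62 for Sirt1. The other member probes and listed genes that were rerun kept their direction, and Lpl, Lepr and Adrb3 were not rerun. The causes were not tested. A loess fitted on the median profile, chosen after seeing the data, left Adipoq (-1.92, limma adjusted p = 0.0442) and Rbp4 called but not Plin1 (0.0547), Gpd1 (0.0594), Cidec or Ucp1 (both 0.0798). The 5 calls of Rbp4, Plin1, Cidec, Gpd1 and Ucp1 were also lost with 75th percentile scaling (0.103 to 0.233), in the authors' table (0.0942 to 0.142), over all probes (0.228 to 0.770), over probes well above background (0.0567 to 0.114) and with scan mode as a block (0.0885 to 0.235), that of Ucp1 with normexp (0.0507) and that of Gpd1 with its probes averaged (-1.44, 0.142). Slide as a random block was not run because 1 slide alone held 2 arrays, and as a fixed block it leaves no residual degrees of freedom, so that it gave values without a test. No paired analysis was possible because no pairs of mice are named in the labels and 1 WT and 1 TG heart alone share a slide. The number of hearts limits the precision of every value, and Lep and Lepr were too close to background to be compared.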
